A study of Mus musculus with 15 samples.

Results

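The genes described here are 7 genes of cholesterol synthesis and its control, Hmgcs1, Idi1, Fdft1, Sqle, Lss, Dhcr7 and Insig1, in mouse embryonic stem cells (mESC) with and without knockdown of Smarcb1. They were taken by symbol from the 55228 genes listed in every table, and each symbol named 1 gene. All 7 had a mean of at least 0.5 FPKM, the minimum for testing, in every comparison. FPKM is a read count scaled to the length of the gene in kilobases and to the depth of the library. The RNA came from 81K1, a line derived from OG2 mESC in which an anti-Smarcb1 shRNA sits in the Rosa26 locus under a doxycycline-dependent promoter. The line goes back to 1 clone, K1. Of the 5 groups, each of 3 libraries, 2 are untreated cells (ctrl, taken at 48 h or 240 h) and 3 are cells given 1 µg doxycycline per ml medium daily (kd, taken after 48 h, 72 h or 240 h). All groups, ctrl included, carry the shRNA cassette and grew on gelatine in medium with serum and LIF, the factor that keeps mESC undifferentiated. No doxycycline-treated cells without the shRNA were analysed here, so effects of the drug and of the knockdown cannot be told apart. The 72 h kd cells have no ctrl of their own time and were compared with 48 h ctrl.

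Cells build cholesterol from acetyl-CoA through the mevalonate pathway, whose early enzymes make isoprenoid units and whose later enzymes join and close them into sterols. When sterols in the endoplasmic reticulum run low, the escort protein SCAP carries the factor SREBP2 (gene Srebf2) to the Golgi, where proteases free its active part, which then switches on the genes of the pathway. When sterols are plentiful, INSIG1 holds SCAP back. The mRNAs of the pathway are therefore often measured together as a readout of how much sterol a cell senses. Smarcb1 belongs to the core of the BAF complex, which remodels chromatin, and the study asked how its loss changes gene expression in mESC over time.

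The libraries held between 11074998 and 14515300 reads, and 24684 to 26535 genes had a value above 0. Smarcb1 itself was at 3.31 to 3.93 FPKM in the 6 ctrl libraries and at 0.503 to 0.820 FPKM in the 9 kd libraries, with no overlap. The 8 embryonic stem cell markers, Pou5f1, Nanog and Sox2 among them, were all expressed in every group, with a summed level of 1621 to 1940 FPKM in ctrl and 1777 to 2708 FPKM in kd, highest at 72 h. The 7 fibroblast markers summed to at most 1.58 FPKM and the 9 markers of primitive or visceral endoderm to at most 0.997 FPKM. The 6 neural progenitor markers, mostly Sox1 and Nes, summed to 7.40 to 8.69 FPKM in ctrl and 13.1 to 20.9 FPKM in kd. The part of these marker differences in the results below was not tested. In bulk RNA, fewer cells expressing a gene and less RNA per cell cannot be told apart. The 48 h kd replicate 2 library had 2.35% mitochondrial reads against 0.469% to 1.81% in the other 14, and values without it are given where it decides a call.

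The promoters of 3 members whose levels moved together over the libraries (Pearson r of 0.69 for Hmgcs1 with Insig1, 0.86 for Hmgcs1 with Lss and 0.84 for Lss with Insig1, n = 15) are shown to place the letters that factors of this pathway are known to bind. The sequences are from RefSeq on GRCm38.p6, plus strand, 5′ to 3′, from 250 bases before the RefSeq start site and ending before the first base of the gene in GENCODE or RefSeq, whichever comes first. Capitals mark matches on either strand to TCACNCCAC, a core of the sterol regulatory element bound by SREBP, CCAAT, bound by NF-Y, and GGGCGG, bound by Sp1. None of the marked matches overlap.
Hmgcs1, chr13:119690101-119690350: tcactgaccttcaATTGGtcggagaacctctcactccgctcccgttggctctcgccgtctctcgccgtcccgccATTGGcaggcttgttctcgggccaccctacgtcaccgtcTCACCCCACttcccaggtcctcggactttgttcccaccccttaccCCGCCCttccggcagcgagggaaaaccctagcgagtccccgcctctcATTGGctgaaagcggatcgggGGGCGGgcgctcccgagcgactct
Lss, chr10:76531355-76531587: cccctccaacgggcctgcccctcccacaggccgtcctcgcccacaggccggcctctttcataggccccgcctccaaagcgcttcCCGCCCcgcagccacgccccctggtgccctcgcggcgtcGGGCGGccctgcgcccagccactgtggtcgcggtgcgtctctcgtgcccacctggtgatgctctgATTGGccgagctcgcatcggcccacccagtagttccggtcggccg
Insig1, chr5:28071162-28071362: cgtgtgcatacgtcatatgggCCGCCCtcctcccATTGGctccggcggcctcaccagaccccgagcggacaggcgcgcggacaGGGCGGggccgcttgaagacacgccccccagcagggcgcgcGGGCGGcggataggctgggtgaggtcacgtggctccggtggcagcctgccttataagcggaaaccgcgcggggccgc

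Of the 7 members, 5 matched a promoter by symbol, with 7 start sites among them, 3 of these for Dhcr7. Sqle and Fdft1 had no entry. The sterol regulatory letters TCACNCCAC were found in the Hmgcs1 promoter alone, 137 bases before its start, in a window of 300 bases. Of all 32851 promoters of that length, 1.24% hold them. Of the 7 member promoters, 5 held CCAAT and 6 held GGGCGG, where 37.4% and 35.7% of all promoters do. A match is a description of the letters in the window, and a window without one says nothing about binding.

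Hmgcs1 (ENSMUSG00000093930.2, chromosome 13, 119690379 to 119708260, plus strand) encodes HMG-CoA synthase, an early enzyme of the mevalonate pathway. It stood at 16.1, 16.3 and 16.2 FPKM in the 48 h ctrl libraries and at 12.6, 12.1 and 11.97 FPKM in the 48 h kd libraries, 75.3% of the control mean. The groups did not overlap, and the log2 fold change was -0.41 (95% confidence interval -0.50 to -0.32, limma adjusted p = 0.0031). At 72 h kd the values were 16.3, 16.9 and 16.7 FPKM, which overlap 48 h ctrl. The 240 h ctrl libraries had 15.3, 15.4 and 15.1 FPKM and the 240 h kd libraries 13.9, 15.1 and 14.8 FPKM, with overlapping ranges and a log2 fold change of -0.06 (interval -0.17 to 0.04, adjusted p = 0.29). Hmgcs1 was thus lowest at 48 h kd, with all 3 libraries below the other 12. An antisense gene, Gm48342, lies inside its span over 6190 bases, and reads were counted without regard to strand. The reads counted for Gm48342 may come from either strand. After subtracting them, 48 h kd was at 144 ± 2.36 RPM (read counts scaled to library depth, SD, n = 3). This was 74.2% of the mean in 48 h ctrl, which was at 194 ± 3.16 RPM. On this scale 72 h kd was at 98.9% of 48 h ctrl and 240 h kd at 82.5%. The 240 h ctrl libraries were at 86.5%, at 168 ± 3.69 RPM with no overlap with 48 h ctrl, whereas the fit to all Hmgcs1 reads gave a log2 fold change of -0.09 between these groups (adjusted p = 0.13). The difference without the Gm48342 reads was not tested.

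Idi1 (ENSMUSG00000058258.14, chromosome 13, 8885501 to 8892451, plus strand) encodes isopentenyl-diphosphate isomerase, which balances the pair of isoprenoid building blocks. It was the member with the fewest reads, 98 to 231 per library. Its level was 2.26, 2.04 and 2.30 FPKM in 48 h ctrl and 1.40, 1.32 and 1.27 FPKM in 48 h kd. Idi1 fell by 0.68 on the log2 scale at 48 h (interval -0.84 to -0.53, adjusted p = 0.0031), to 60.5% of the control mean, with all 3 kd libraries below all 3 ctrl libraries. At 72 h kd it was at 1.55, 1.68 and 1.54 FPKM, again below every 48 h ctrl library, with a log2 fold change of -0.45 (interval -0.59 to -0.30, adjusted p = 0.0019). The 240 h ctrl libraries spread from 2.13 over 2.41 to 2.60 FPKM and the 240 h kd libraries had 1.97, 1.82 and 1.98 FPKM. The 240 h groups did not overlap, and the difference was -0.29 (interval -0.48 to -0.09, adjusted p = 0.039). That adjusted p rose above 0.05 when 1 of 5 of the 6 libraries was left out (0.072 to 0.12). The exception was 240 h ctrl replicate 1. Over all 19 alternative fits, these included, the adjusted p stayed under 0.05 in 7.

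Fdft1 (ENSMUSG00000021273.10, chromosome 14, 63145150 to 63179578, minus strand) encodes squalene synthase, the first enzyme committed to sterols. It had 2.68, 2.75 and 2.88 FPKM in 48 h ctrl, 2.42, 2.43 and 2.34 FPKM in 48 h kd and 3.00, 3.23 and 3.02 FPKM in 72 h kd. The 48 h kd libraries were the lowest of these and the 72 h kd libraries the highest, with no overlap. The log2 fold changes against 48 h ctrl were -0.20 at 48 h (interval -0.30 to -0.09, adjusted p = 0.032) and 0.15 at 72 h (interval 0.04 to 0.26, adjusted p = 0.033). At 48 h the adjusted p lay above 0.05 whichever of the 6 libraries was left out (0.051 to 0.11), and at 72 h without any of 5 of the 6 (0.052 to 0.090). With 240 h ctrl as the control Fdft1 was at -0.04 at 48 h (adjusted p = 0.60) and at 0.31 at 72 h (adjusted p = 0.0027). At 240 h the ctrl libraries had 2.35, 2.50 and 2.54 FPKM and the kd libraries 2.36, 2.27 and 2.33 FPKM, which overlap (log2 fold change -0.08, interval -0.19 to 0.02). The last 774 bases of Fdft1 overlap the end of Ctsb, a protease gene on the other strand, and reads from them cannot be assigned to either.

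Sqle (ENSMUSG00000022351.14, chromosome 15, 59315077 to 59331192, plus strand) encodes squalene epoxidase, a rate-limiting enzyme of the sterol branch. Its level was 7.94, 8.51 and 8.20 FPKM in 48 h ctrl and 5.62, 4.83 and 5.40 FPKM in 48 h kd. Sqle fell by 0.63 on the log2 scale (interval -0.80 to -0.47, adjusted p = 0.0044), to 64.3% of the control mean, with no overlap. Without 48 h kd replicate 2, the lowest library and the one with most mitochondrial reads, the log2 fold change was -0.57 (adjusted p = 0.0064), just short of the 0.58 needed for a call. At 72 h kd Sqle was at 6.25, 6.27 and 6.11 FPKM, a difference of -0.40 from 48 h ctrl (interval -0.48 to -0.31, adjusted p = 0.00038). The 240 h libraries had 7.41, 7.31 and 7.69 FPKM in ctrl and 6.05, 6.12 and 6.18 FPKM in kd, a difference of -0.28 (interval -0.37 to -0.20, adjusted p = 0.0020). In all 9 kd libraries Sqle was below all 6 ctrl libraries. Idi1 was also below its lowest ctrl library in all 9.

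Lss (ENSMUSG00000033105.12, chromosome 10, 76531588 to 76557138, plus strand) encodes lanosterol synthase, which closes the sterol rings. It was at 3.58, 3.57 and 3.69 FPKM in 48 h ctrl, at 2.80, 2.97 and 2.88 FPKM in 48 h kd and at 3.77, 3.79 and 4.24 FPKM in 72 h kd. The 48 h kd libraries lay below the ctrl libraries and the 72 h kd libraries above them, with log2 fold changes of -0.31 (interval -0.41 to -0.22, adjusted p = 0.0063) and 0.12 (interval -0.02 to 0.25, adjusted p = 0.11). At 240 h the ctrl libraries had 3.60, 3.73 and 3.60 FPKM and the kd libraries 3.11, 3.06 and 3.08 FPKM, without overlap (log2 fold change -0.23, interval -0.31 to -0.16, adjusted p = 0.0032). The antisense gene 4930483K19Rik shares 11268 bases with Lss and averaged 767 reads against 1099 for Lss, so part of the Lss signal cannot be assigned to either strand.

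Dhcr7 (ENSMUSG00000058454.15, chromosome 7, 143823145 to 143848410, plus strand) encodes 7-dehydrocholesterol reductase, the last step to cholesterol. Its level was 2.84, 2.69 and 2.71 FPKM in 48 h ctrl and 2.56, 2.62 and 2.62 FPKM in 48 h kd, a difference of -0.08 (interval -0.17 to 0.02, adjusted p = 0.23). At 72 h kd it was at 3.70, 3.65 and 3.72 FPKM, 134% of the 48 h ctrl mean, with a log2 fold change of 0.41 (interval 0.34 to 0.49, adjusted p = 0.00026) that does not reach the 0.58 for a call. The 3 libraries of 72 h kd were above all other 12. The 240 h ctrl libraries had 2.37, 2.35 and 2.34 FPKM and the 240 h kd libraries 2.36, 2.50 and 2.59 FPKM (log2 fold change 0.07, interval -0.03 to 0.18, adjusted p = 0.22). Dhcr7 was the only member with an adjusted p under 0.05 between the untreated groups, at -0.21 for 240 h against 48 h (interval -0.30 to -0.13, adjusted p = 0.045), and its adjusted p lay above 0.05 whichever of the 6 libraries was left out (0.083 to 0.15). Against 240 h ctrl instead of 48 h ctrl, Dhcr7 at 48 h kd was higher by 0.14 (adjusted p = 0.036), and at 72 h kd it was called, at 0.63 (adjusted p = 5.9e-05).

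Insig1 (ENSMUSG00000045294.11, chromosome 5, 28071363 to 28078662, plus strand) encodes the sterol-dependent anchor of SCAP and is itself a target of SREBP. It had 12.6, 12.4 and 12.5 FPKM in 48 h ctrl, 10.2, 9.69 and 9.86 FPKM in 48 h kd and 13.99, 14.99 and 14.4 FPKM in 72 h kd. These 3 groups did not overlap, and the log2 fold changes against 48 h ctrl were -0.33 at 48 h (interval -0.42 to -0.24, adjusted p = 0.0046) and 0.21 at 72 h (interval 0.13 to 0.29, adjusted p = 0.0036). Against 240 h ctrl they were -0.17 (adjusted p = 0.044) and 0.37 (adjusted p = 0.0011). At 240 h the ctrl libraries had 10.8, 11.6 and 11.2 FPKM and the kd libraries 9.20, 8.30 and 9.45 FPKM, a difference of -0.32 (interval -0.46 to -0.17, adjusted p = 0.012). From 72 h kd to 240 h kd Insig1 fell by 0.68 on the log2 scale (interval -0.82 to -0.54, adjusted p = 0.00029), all 3 libraries moving below the range of 240 h ctrl.

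**Figure D1:**
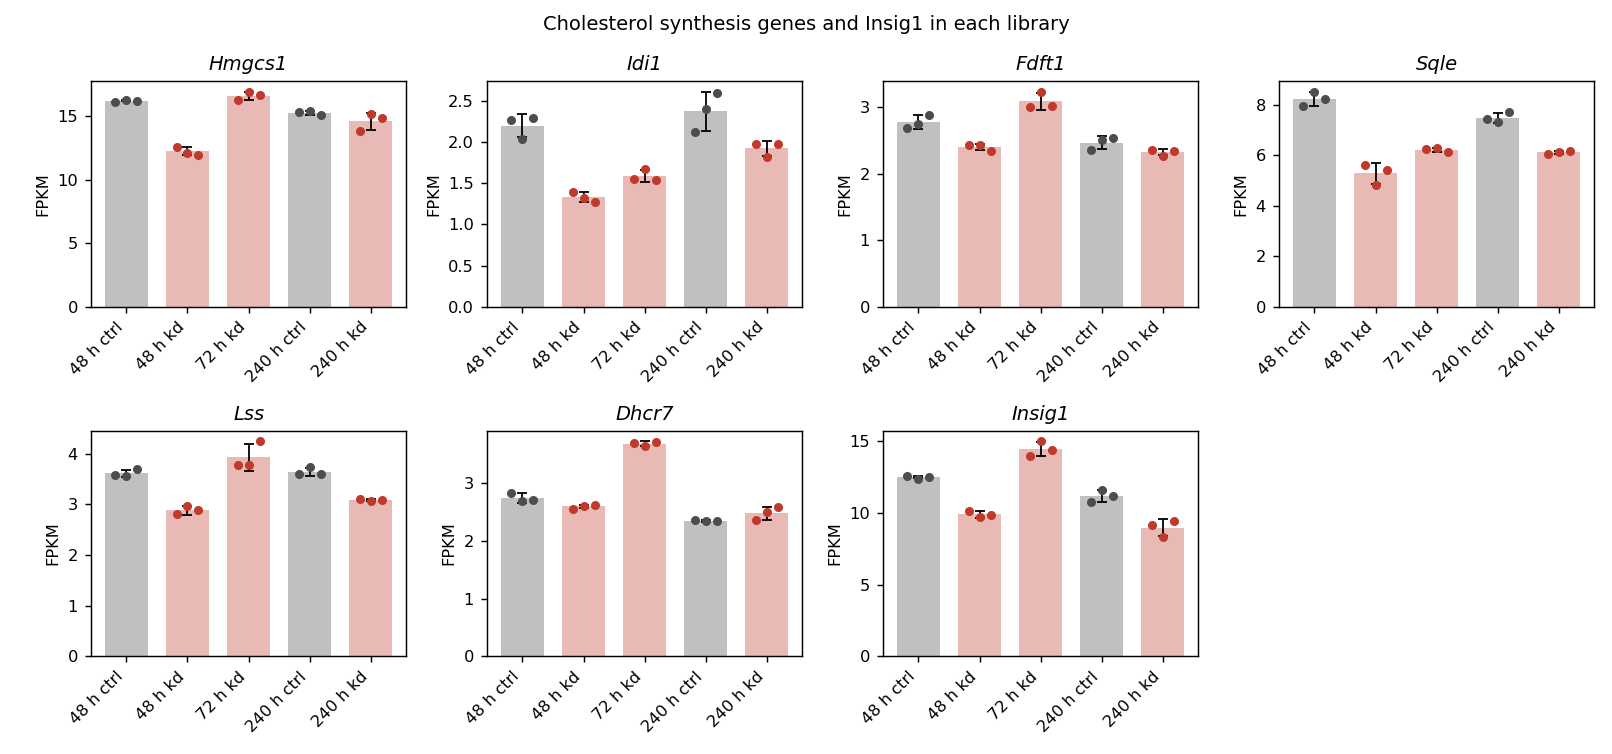
Level of each gene in FPKM on the y axis, starting at 0, for the 5 groups on the x axis. Points are libraries, bars are means and error bars are SD (n = 3, ctrl grey, kd red). The 48 h kd bar is the lowest for Hmgcs1, Idi1, Sqle and Lss, and the 72 h kd bar is the highest for Hmgcs1, Fdft1, Lss, Dhcr7 and Insig1.

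Levels can be compared between genes only per length, for which the reads were divided by the exonic length in place of the gene span. On this scale Hmgcs1 was the most abundant member in 48 h ctrl, at 63.1 ± 0.278 RPM per exonic kilobase (SD, n = 3). Insig1 followed at 29.5 ± 0.211, Sqle at 23.9 ± 0.820 and Fdft1 at 22.6 ± 0.848, of which Sqle and Fdft1 lay within their spread of each other. Dhcr7 was at 11.9 ± 0.354, Lss at 8.56 ± 0.168 and Idi1 at 4.36 ± 0.283. Reads in introns count in these values, since reads were counted over whole gene spans. Those of Hmgcs1, Lss and Fdft1 also include reads in stretches shared with a gene on the other strand, which cannot be assigned to either.

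At 48 h all 7 members had a log2 fold change below 0, as had 48.8% of all genes, with a median of -0.33 against 0.01 over the 11420 genes tested. By adjusted p under 0.05 alone, 6 of 7 were lower, all but Dhcr7, against 8.12% of all genes tested. With the replicate number as a block 3 of 7 were lower (Hmgcs1, Sqle and Idi1), against 1.95% of all genes in that fit. By the call used in the study, which also asks for an absolute log2 fold change above 0.58, 2 of 7 were downregulated (Idi1 and Sqle), against 2.01% of all genes. With a pseudocount of 1 in place of 0.1 FPKM neither was called (Idi1 -0.46, Sqle -0.55). With the 240 h ctrl libraries as the control, Idi1 was called and Sqle was at -0.49.

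At 72 h, against the same 48 h ctrl libraries, the members no longer lay on 1 side. Sqle and Idi1 were lower and Dhcr7, Insig1 and Fdft1 higher at adjusted p under 0.05, which is 2 of 7 lower and 3 of 7 higher, against 26.0% and 28.9% of all genes tested. The shares among the members are thus near those of all genes. No member was called. With 240 h ctrl as the control Dhcr7 was called, against 9.92% of all genes called higher there. By adjusted p alone 4 of 7 were then higher and 2 lower, against 30.2% and 27.0% of all genes, Hmgcs1 now among the higher (0.12 in place of 0.03). The median log2 fold change was 0.12 over the members and 0.01 over all genes.

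Between 48 h kd and 72 h kd all 7 members were higher at 72 h by adjusted p alone, against 20.0% of all genes, with a median log2 fold change of 0.43 and none called. Insig1 differed most, by 0.54 (interval 0.44 to 0.64, adjusted p = 0.0013), followed by Dhcr7 at 0.49 (interval 0.41 to 0.57) and Hmgcs1 at 0.44 (interval 0.35 to 0.53). The differences of Sqle (0.23, adjusted p = 0.035) and Idi1 (0.24, adjusted p = 0.023) were the least. Each of these lay above 0.05 without 48 h kd replicate 3 and without any 1 of the 72 h kd libraries (0.056 to 0.10). Over all alternative fits, these included, Sqle stayed under 0.05 in 10 of 18 and Idi1 in 10 of 17. The low values at 48 h and the higher ones at 72 h rest on the same 3 libraries of 48 h kd, so these comparisons are not independent of each other. Hours in culture and hours of doxycycline cannot be told apart here, as the 72 h group has no ctrl.

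From 72 h kd to 240 h kd, 5 of 7 members were lower by adjusted p alone, against 31.8% of all genes. Insig1 alone of the 7 was called lower, against 9.29% of all genes. Without 240 h kd replicate 3, Dhcr7 was called as well (-0.58, adjusted p = 0.00081, from -0.55 with all libraries). Sqle did not pass (-0.02, interval -0.08 to 0.04), and Idi1 was higher by 0.26 (interval 0.14 to 0.39, adjusted p = 0.0066). Sqle and Idi1 were therefore the members outside the common pattern, and they also had the lowest 72 h kd levels relative to 48 h ctrl (75.6% and 72.2%).

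At 240 h, 4 of 7 members (Sqle, Idi1, Lss and Insig1) were lower in kd than in ctrl by adjusted p alone, against 16.4% of all genes. Idi1 passed in only 7 of 19 alternative fits (listed below), and Sqle, Lss and Insig1 each passed in all 19. None was called. The median log2 fold change was -0.23 over the members and -0.0016 over all 11401 genes tested. Between the untreated groups Dhcr7 was the only member of 7 lower at 240 h by adjusted p alone, against 1.33% of all genes. The members' median was -0.14 there, against -0.02 over all genes, and 5 of 7 had a value below 0, as had 54.6% of all genes.

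The change of the knockdown effect from 48 h to 240 h was tested as an interaction over the 12 libraries of those times. The effect on Hmgcs1 was less negative at 240 h by 0.34 (interval 0.23 to 0.46, adjusted p = 0.0018), that on Sqle by 0.35 (interval 0.18 to 0.51, adjusted p = 0.012) and that on Idi1 by 0.40 (interval 0.16 to 0.63, adjusted p = 0.030). These 3 of 7 compare with 7.76% of all genes higher by adjusted p alone, and none was called, against 2.72% of all genes. For Lss the difference was 0.08 (interval -0.02 to 0.18) and for Insig1 0.02 (interval -0.14 to 0.17). The Idi1 value depended on single libraries, with an adjusted p above 0.05 in 7 of the 12 fits that leave 1 library out (0.055 to 0.073).

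**Figure D2:**
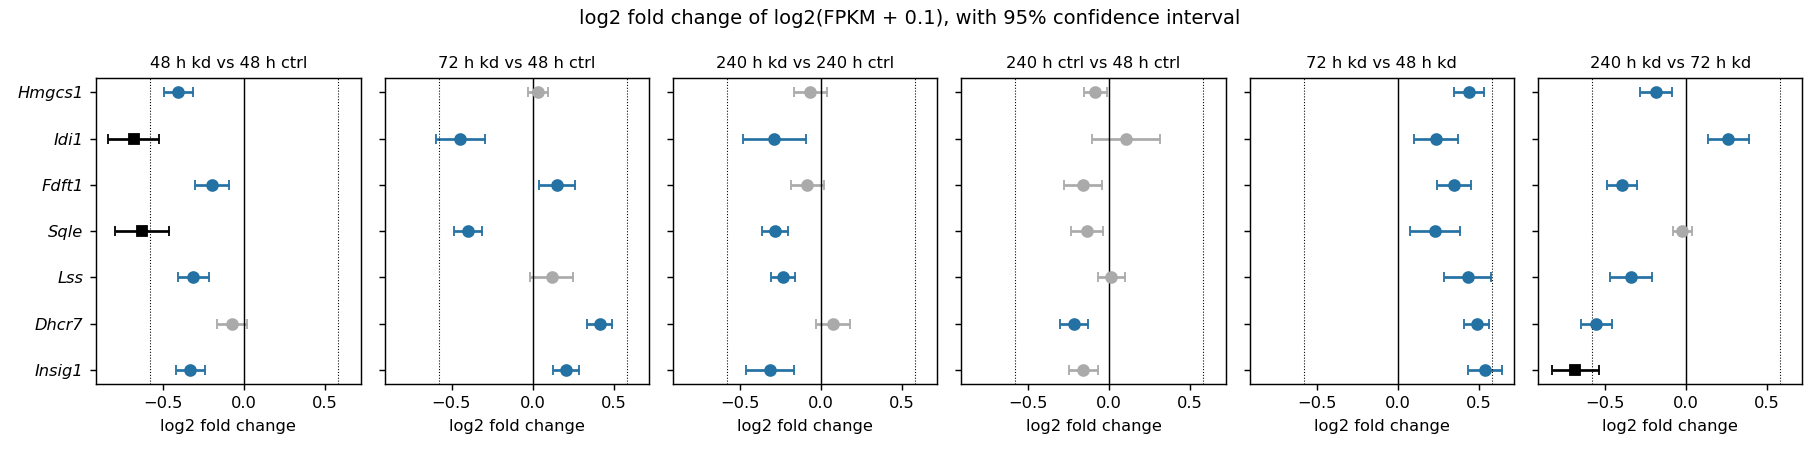
log2 fold change of each member (x axis, log2(FPKM + 0.1) scale) in 6 comparisons, with 95% confidence intervals. Black squares passed adjusted p under 0.05 and the 0.58 marked by dotted lines, blue circles passed adjusted p alone and grey circles passed neither. All 7 points lie left of 0 for 48 h kd against 48 h ctrl and right of 0 for 72 h kd against 48 h kd.

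Over the 15 libraries, the 21 pairs of members had Pearson correlations of log2 level between -0.41 (Idi1 with Dhcr7) and 0.95 (Fdft1 with Insig1), with a median of 0.58. Sqle and Idi1 were close to each other (r = 0.85), as were Fdft1 with Dhcr7 (0.85) and Hmgcs1 with Lss (0.86). These values describe how the levels ran together over libraries of 5 groups that share their depth and processing. The mean of the members' standardized levels, in SD units of each gene, was 0.65 ± 0.08 for ctrl and -1.08 ± 0.09 for kd at 48 h (SD, n = 3 each). It was 0.84 ± 0.13 for kd at 72 h, and at 240 h it was 0.18 ± 0.15 for ctrl and -0.59 ± 0.11 for kd. The ranges of the 5 groups overlapped only between 48 h ctrl (0.59 to 0.74) and 72 h kd (0.70 to 0.94).

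Of the genes outside the members, 7304 with at least 1 FPKM on average were ranked by the correlation of their log2 levels with this mean. The first 10 ranks held Plcb3 (r = 0.947), Tle5 (0.947), Sox2ot (0.937), Sox2 (0.933), Slc2a1 (0.929), Srebf2 (0.920), Traf4 (0.913) and Gpbp1l1 (0.912). Sox2 lies inside Sox2ot, so their reads are shared. Srebf2, which encodes SREBP2, is thus in this list, and Cyp51, the next enzyme after Lss, stood at rank 11 (r = 0.908). Of 37 other genes of the cholesterol, fatty acid and isoprenoid lists, 5 were among the 100 most alike, which are 1.37% of the genes ranked. Of the 11 enzymes of both branches compared that are not members, Cyp51 was the only 1 among these 100. With Spearman's rho 5 of these 8 stayed among the first 10, and with the 5 group means 0 of 8.

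The wider pathway was followed in lists of 7 mevalonate enzymes and 12 sterol enzymes, 6 of them members. Of the 13 that are not members, 12 had a log2 fold change below 0 at 48 h, as had 48.8% of all genes, with a median of -0.14, and 3 were lower by adjusted p alone (Cyp51, Msmo1 and Nsdhl), against 8.12% of all genes. None of the 13 was called. Between the untreated groups all 13 had a value below 0 at 240 h, as had 54.6% of all genes, with a median of -0.12, and Msmo1 alone was lower by adjusted p (-0.48, adjusted p = 0.036). Msmo1 was at 6.16 ± 0.173 FPKM in 48 h kd, below 48 h ctrl (7.51 ± 0.297) but above 240 h ctrl (5.36 ± 0.206). At 72 h against 48 h ctrl 6 of the 13 were higher and 0 lower by adjusted p alone, against 28.9% and 26.0% of all genes, and 2 were called higher, Mvk and Tm7sf2, against 8.23% of all genes. Mvk, mevalonate kinase, rose by 0.63 from 1.40 ± 0.114 to 2.22 ± 0.083 FPKM (adjusted p = 0.00069). Tm7sf2, a sterol reductase, rose by 0.62 (adjusted p = 0.00078), and was at 0.55 and no longer called without 72 h kd replicate 3. With a pseudocount of 1 FPKM neither was called (Mvk 0.42, Tm7sf2 0.52). From 48 h kd to 72 h kd 9 of the 13 were higher by adjusted p alone, against 20.0% of all genes, and none was lower, and 4 were called (Mvk, Fdps, Tm7sf2 and Nsdhl), against 4.17% of all genes. From 72 h kd to 240 h kd 12 of the 13 were lower by adjusted p alone, against 31.8% of all genes. At 240 h against its own ctrl 3 of the 13 were lower by adjusted p alone (Lbr, Ebp and Sc5d), against 16.4% of all genes.

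By adjusted p alone, 0 of the 6 sensing genes that are not members were higher at 48 h and 1 lower. The shares over all genes were 8.03% and 8.12%. At 72 h 4 of the 6 were higher and 1, Insig2, lower (-0.26), against 28.9% and 26.0% of all genes. At 240 h 1 was higher and 3 lower, against 17.3% and 16.4%. Srebf2 ran with the members. It had 4.93, 4.94 and 5.14 FPKM in 48 h ctrl, 4.32, 4.16 and 4.14 FPKM in 48 h kd and 5.91, 5.65 and 5.83 FPKM in 72 h kd, with no overlap between the groups. The log2 fold changes were -0.24 at 48 h (adjusted p = 0.013), 0.21 at 72 h (adjusted p = 0.0031) and -0.18 at 240 h (adjusted p = 0.0097), none of them called. Srebf1, whose products act more on fatty acid genes, was at 4.82 to 5.09 FPKM in 48 h ctrl and 4.40 to 4.75 FPKM in 48 h kd (-0.10, adjusted p = 0.21). It was at -0.0021 at 72 h (adjusted p = 0.97) and lower by adjusted p at 240 h, with 5.01, 5.01 and 5.25 FPKM in ctrl and 4.48, 4.37 and 4.33 FPKM in kd (-0.21, interval -0.29 to -0.12, adjusted p = 0.0072). Scap went the other way at 48 h, with 0.978, 0.842 and 0.915 FPKM in ctrl and 1.07, 1.12 and 1.02 FPKM in kd (0.21, adjusted p = 0.10). It rose by 0.64 at 72 h, to 1.51, 1.45 and 1.48 FPKM (adjusted p = 0.00050), and was higher by 0.47 at 240 h (adjusted p = 0.0033). After removing the trend with GC content and gene span the Scap value at 72 h was 0.47 and no longer called, and that of Mvk was 0.50. With a pseudocount of 1 FPKM Scap was at 0.38, also not called.

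Among the uptake and trafficking genes, 4 of 7 were tested at 48 h, and none passed by adjusted p. At 72 h 2 of 4 tested were upregulated, against 8.23% of all genes, and none downregulated. These were Npc2, which carries cholesterol out of lysosomes (0.75, adjusted p = 0.00011), and Scarb1, the HDL receptor (0.62, adjusted p = 0.00079). Scarb1 was not called with a pseudocount of 1 FPKM (0.33) or with quantile normalization (0.57), which leaves 1 of 4. At 240 h 1 of 4 was higher by adjusted p alone (Npc1, 0.34) and 1 lower (Stard4, -0.18). The shares over all genes were 17.3% and 16.4%.

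Of the genes of efflux and storage, Apoe, which packages lipids for transport, rose in all 3 kd groups. It was at 120, 123 and 130 FPKM in 48 h ctrl and at 352, 274 and 329 FPKM in 48 h kd, a change of 1.35 (adjusted p = 0.0021). The change was 2.33 at 72 h and 0.89 at 240 h. By the call, 1.99% of all genes were higher at 48 h and 4.79% at 240 h, and Apoe was the only gene of all 7 lists among them at either time. Abca7, a lipid transporter, rose by 1.22 at 72 h, from 0.766 ± 0.062 to 1.92 ± 0.093 FPKM (adjusted p = 0.00011), and by 0.72 with a pseudocount of 1 FPKM. Of 8 fatty acid genes tested at 48 h, 5 were lower by adjusted p alone (Fasn, Scd1, Elovl6, Fads1 and Fads2), against 8.12% of all genes, and none was called, with a median of -0.21. At 72 h 1 of 8 was higher and 2 lower by adjusted p alone, against 28.9% and 26.0% of all genes, with a median of -0.0075. At 240 h 5 of 8 were lower, against 16.4% of all genes, led by Scd2 (-0.57) and Scd1 (-0.49), and 1, Fads2, was higher (0.51), against 17.3%. At 48 h the 10 tested genes of other isoprenoid branches had a median of 0.04, and Dhdds alone was higher by adjusted p, against 8.03% of all genes. By adjusted p alone 2 of these 10 were higher and 3 lower at 72 h, against 28.9% and 26.0% of all genes, and 0 higher and 1 lower at 240 h, against 17.3% and 16.4%.

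**Figure D3:**
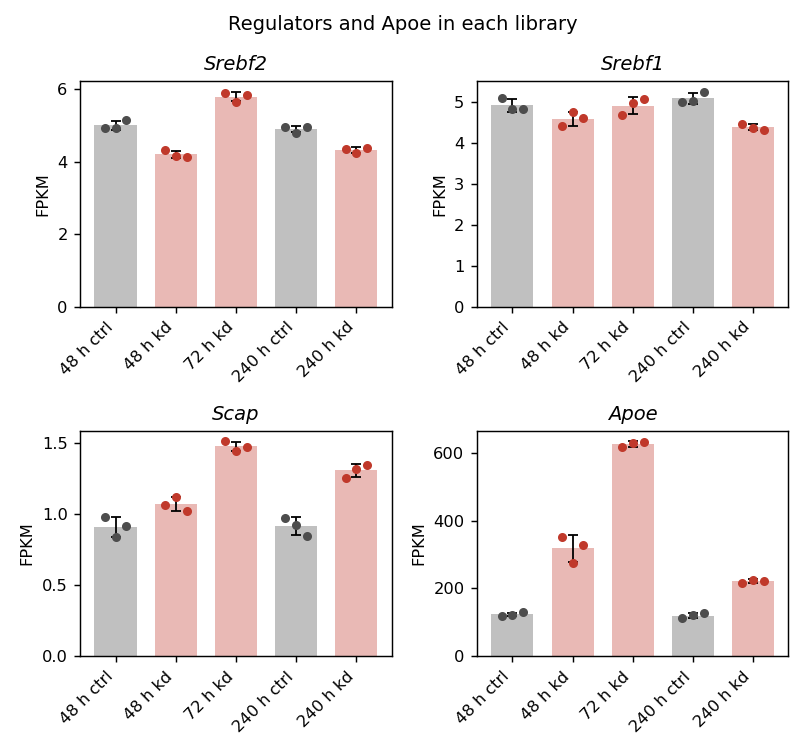
Level in FPKM (y axis, starting at 0) of Srebf2, Srebf1, Scap and Apoe in the 5 groups. Points are libraries, bars means and error bars SD (n = 3, ctrl grey, kd red). Srebf2 is lowest at 48 h kd and highest at 72 h kd, while Apoe is higher in all kd groups.

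**Figure D4:**
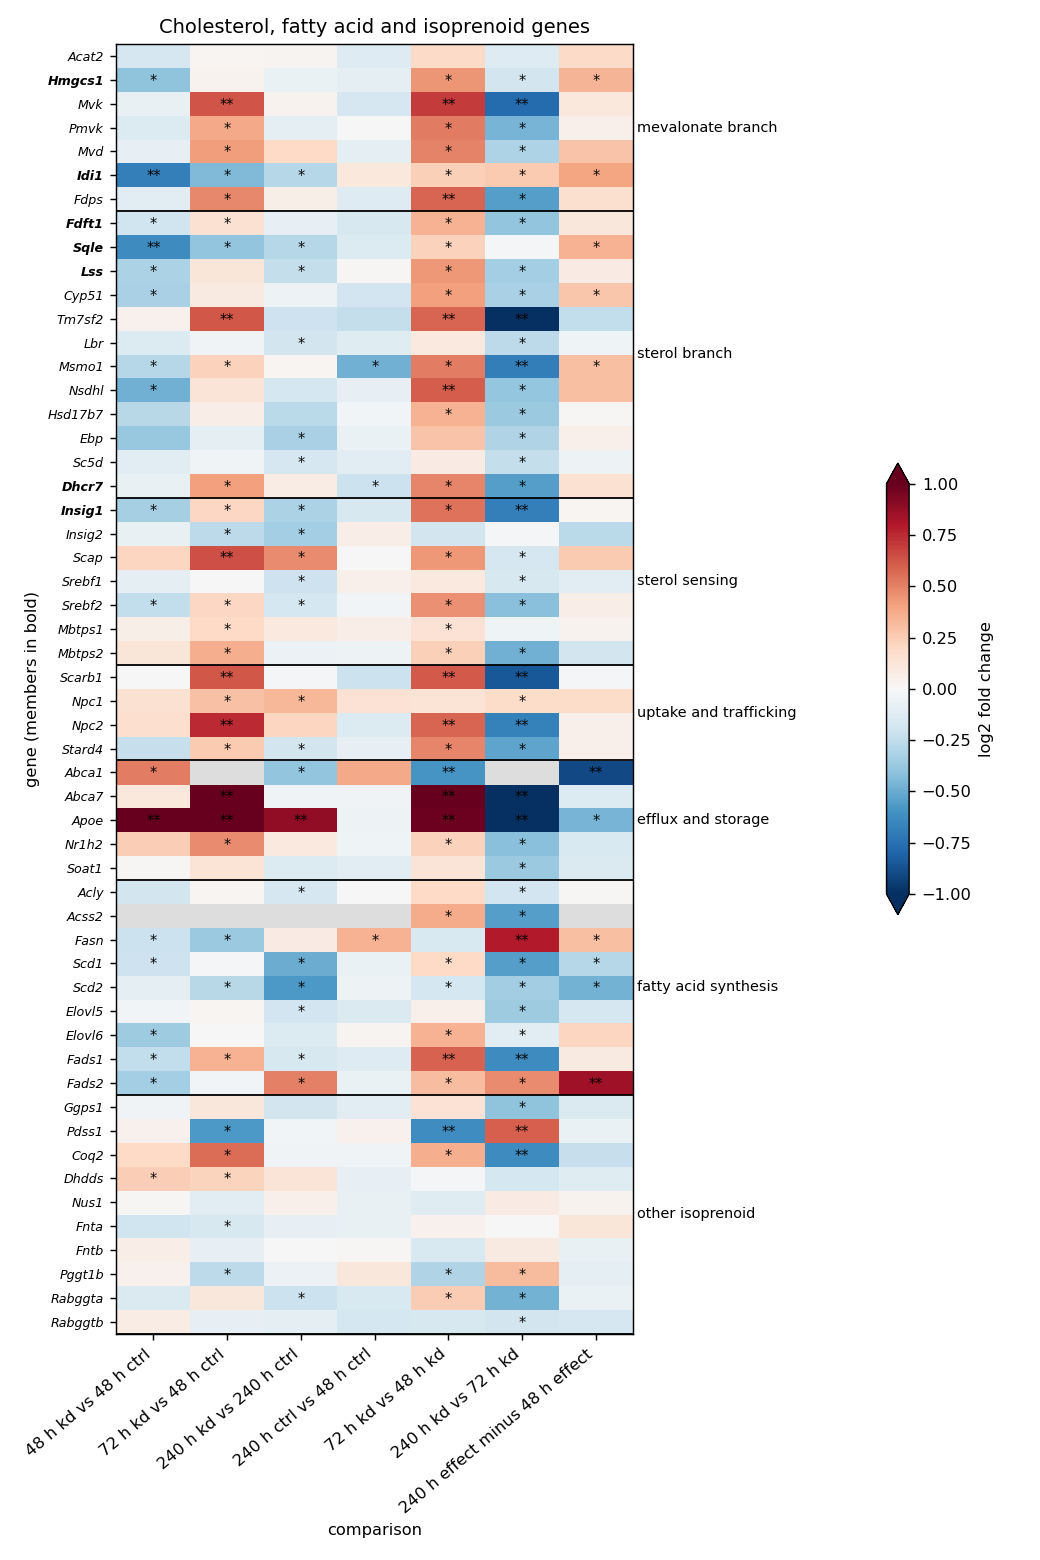
log2 fold change (colour, from -1 to 1, values beyond it at the end colours) of the tested genes of 7 lists in rows, ordered by list, and the comparisons in columns, the last being the interaction. One star marks adjusted p under 0.05, a pair of stars the call, grey not tested. The first column is mostly blue and the fifth mostly red for the mevalonate and sterol genes.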

How the data were processed

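Total RNA of 15 mESC libraries was sequenced by the authors as single reads. Reads were aligned with STAR 2.7.0c to mm10 (GRCm38.p6) and counted per gene in R 4.0.3 with GenomicRanges and Rsamtools, and DESeq2 1.30.0 was used for testing by the authors, per the labels and the study's methods. The annotation used for counting is not given in the sources used here. The deposited values are FPKM per gene and library. Multiplied by gene span and 1 total per library they gave whole reads for 100.0% of values (tolerance 0.001), so reads were counted over whole spans, introns included. Of 55228 listed genes, 53297 matched GENCODE M21, which gave identifiers, strand and exonic length.

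From these values limma 3.58.1 (R 4.3.3, lmFit and eBayes with trend) was fitted to log2(FPKM + 0.1), two-sided, for genes whose mean over the libraries of a comparison reached 0.5 FPKM. Benjamini-Hochberg adjustment was made over all genes tested. Fold changes are on that scale, which understates low genes. A gene was called at adjusted p under 0.05 and absolute log2 fold change above 0.58, as in the study, and "adjusted p alone" drops the second condition. Scripts were tested on simulated data. Groups were taken from the labels, which do not say whether replicates are separate cultures, so p-values measure the spread between these libraries, which may be technical.

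The members, lists and alternatives were chosen with earlier results of these data known. Named were all members, Smarcb1, Srebf2, Srebf1 and Scap, other listed genes called in a comparison of kd with ctrl (at most the 8 largest changes each) and the genes of the 10 first ranks of likeness in level. Some genes under this rule and of the lists are not reported here and are left out of all counts over lists. Further listed genes named beside a count of 5 or fewer were chosen after seeing their values. Alternatives tried were pseudocounts, FPKM minimums, TPM, median centring, quantile normalization, a fit of all 15 libraries, no variance trend, a replicate block, voom on recovered reads, other controls, other thresholds and leaving out each library. Removing the trend with GC content and gene span was added after seeing the data. Same-numbered libraries of the groups compared correlated at -0.10 to 0.14, so the numbers were not taken as pairs.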

Additional observations from a re-analysis of the deposited data

Results flagged for a closer look

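The knockdown effect on 2 genes of the wider lists differed between 48 h and 240 h, past both thresholds. The test was of the difference itself (limma interaction over 12 libraries). These were 1 of 5 efflux and storage genes tested and 1 of 8 fatty acid genes, with none in the other lists. Over all genes 664 of 11412 tested passed both thresholds, 310 higher and 354 lower. Abca1, which exports cholesterol to lipoproteins, was at 0.487, 0.469 and 0.474 FPKM in 48 h ctrl and 0.736, 0.748 and 0.691 FPKM in 48 h kd, but at 0.690, 0.643 and 0.618 FPKM in 240 h ctrl and 0.498, 0.452 and 0.467 FPKM in 240 h kd. Its effect at 240 h minus that at 48 h was -0.91 (SE 0.10, adjusted p = 0.00021). It was -0.39 with a pseudocount of 1 FPKM, which is not called. Abca1 was below 0.5 FPKM in every 48 h ctrl and 240 h kd library, so it passed the minimum for testing, set on the mean of the 12 libraries, only through 48 h kd and 240 h ctrl, the groups in which it was high. With no minimum the difference was again -0.91 (adjusted p = 0.00015). Fads2, a fatty acid desaturase, was at 1.93, 2.12 and 1.91 FPKM in 48 h ctrl and 1.63, 1.45 and 1.56 FPKM in 48 h kd, and at 1.86, 1.96 and 1.86 FPKM in 240 h ctrl and 2.701, 2.74 and 2.76 FPKM in 240 h kd. Its difference was 0.85 (SE 0.07, adjusted p = 5.9e-05), and it was called under every alternative run. For each of the 2 genes all 3 kd libraries lay on 1 side of the ctrl libraries at 48 h and on the other side at 240 h. No member met this mark.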

How the results depend on the processing

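Of the 49 member log2 fold changes (7 members in 7 comparisons), 43 kept their direction under every alternative run. At 48 h the count of members called lower, 2, became 0 with a pseudocount of 1 or an absolute log2 fold change above 1, 1 with a minimum of 2 FPKM (which leaves Idi1 out) or with 240 h ctrl as the control, and 6 by adjusted p alone. With 240 h ctrl, 1 member was higher by adjusted p, Dhcr7 (0.14, turned from -0.08), against 11.7% of all genes. At 240 h against 48 h ctrl Dhcr7 turned to -0.14. Adjusted p alone gave 3 members higher and 2 lower at 72 h, 4 lower at 240 h, 1 lower between ctrl groups, 7 higher from 48 h kd to 72 h kd, 1 higher and 5 lower from 72 h kd to 240 h kd, and 3 higher in the interaction. Among these, Fdft1 at 72 h passed in 10 of 19 alternatives, Idi1 at 240 h in 7 of 19 and Dhcr7 between ctrl groups in 7 of 18. From 48 h kd to 72 h kd Sqle passed in 10 of 18 and Idi1 in 10 of 17. In the interaction Idi1 passed in 14 of 23. With 240 h ctrl for 72 h, Dhcr7 was called (1 member), against 9.92% of all genes called higher. A minimum of 2 FPKM left 1 member lower at 72 h and 0 higher from 72 h kd to 240 h kd, where an absolute log2 fold change above 1 left 0 called. Rescaling to TPM gave 1 member called higher from 48 h kd to 72 h kd (Insig1, 0.61). Over all genes 1100 of 19091 tested were called higher there with TPM, against 479 of 11500 without it.

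Median member log2 fold changes moved by more than the replicate spread with TPM (-0.38 at 48 h, -0.025 between ctrl groups, 0.51 from 48 h kd to 72 h kd, -0.27 from 72 h kd to 240 h kd, 0.19 in the interaction) and with a pseudocount of 1 (-0.19 at 240 h, 0.34, -0.27 and 0.11 in those last 3). Besides Dhcr7 under the other control (above), the direction turned for the following values. With TPM these were Hmgcs1 (0.024) and Srebf2 (0.081) between ctrl groups, Srebf1 at 72 h (0.020) and Sqle from 72 h kd to 240 h kd (0.060, and 0.013 with quantile normalization). With the GC content and span trend removed they were Scap between ctrl groups (-0.050) and Srebf1 from 48 h kd to 72 h kd (-0.047). Leaving out 1 library moved Srebf1 at 72 h between -0.025 and 0.031, Scap between -0.045 and 0.055 and Lss between -0.0043 and 0.028 for the ctrl groups, and Insig1 in the interaction between -0.020 and 0.073.

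Without 1 library, members called lower were 1 to 2 at 48 h and 1 to 2 from 72 h kd to 240 h kd, members lower between ctrl groups were 0, and the median in the interaction was 0.12 to 0.18. Members lower between ctrl groups were also 0 with no minimum, TPM, no trend in the variance, the replicate block or the GC trend removed. They were 2 with voom and 3 in the fit of 15. By the call, all genes passing there also rose, from 54 of 11359 tested to 220 of 16215 with voom and 100 of 11433 in the fit of 15. With the replicate block, 3 members in place of 6 were lower at 48 h by adjusted p (Hmgcs1, Sqle and Idi1), and the 2 calls stayed. Over all genes, calls at 48 h were 456, and 208 with a pseudocount of 1, 208 with a minimum of 2 FPKM, 817 with TPM, 285 with the block and 1485 with voom. The genes tested were 11420, but 6189 with the minimum of 2 FPKM, 19251 with TPM and 16108 with voom, so these counts differ in more than the method. Idi1, with 98 to 231 reads per library, is the member most limited by depth. The causes were not tested.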
